A study of Mus musculus with 6 samples.

Results

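The clustered protocadherins are the adhesion genes of the alpha, beta and gamma protocadherin clusters of mouse chromosome 18. Their rows were chosen by symbol: every gene ID of the deposited count table that a RefSeq-based name table maps to Pcdha, Pcdhb or Pcdhg followed by a subtype. The rule gave 58 of 24467 gene IDs, 14 alpha, 22 beta and 22 gamma, and 1 of the gamma genes, Pcdhgb8, is a transcribed pseudogene.

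RNA was sequenced from 6 libraries of mouse embryonic stem (ES) cells, which are cultured cells of the early embryo. The control was 1 clone, n = 2 libraries, with floxed alleles of the genes for HP1 alpha (Cbx5) and HP1 beta (Cbx1), given as WT in its genotype label. The other libraries came from double knockout (DKO) clone 1, n = 2, and DKO clone 2, n = 2, which lack both proteins by their labels. No group received a further treatment, and all cells grew in knockout serum replacement with LIF, 3 µM CHIR99021 (a GSK3 inhibitor) and 0.8 µM PD184352 (a MEK inhibitor). With 1 control clone, a difference of genotype and a difference between clones cannot be told apart, and nothing in the labels says that the libraries of a clone were separate cultures. The p-values therefore measure the spread between these libraries, which may be technical.

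Clustered protocadherins are cell surface cadherins best known from neurons, where each cell uses a few of them as an identity code for contact with its neighbours. In the alpha and gamma clusters a large variable exon, with its own promoter, is spliced to 3 constant exons at the end of the cluster, so that isoforms differ outside the cell and share their inner tail. Beta genes have a single coding exon and no constant exons. Choice of a promoter depends on CTCF and cohesin, and DNA methylation, SETDB1 and SMCHD1 are known to keep promoters of these clusters silent. HP1 proteins bind histone H3 methylated at lysine 9, the mark that SETDB1 writes.

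Library totals ran from 24628872 to 34641560 reads. Levels are library-scaled CPM, the reads of a gene as a share of the library's reads, with TMM factors between 0.992 and 1.01. As a check of the labels, Cbx5 stood at 811 ± 2.96 CPM in the control libraries and at 198 ± 6.58 in the DKO libraries (SD), and Cbx1 at 225 ± 2.88 and 45.7 ± 2.44. All 12 ES cell markers on a fixed list were tested and none was at 0 in every library. Genes with 2 reads outnumbered genes with 1 read in every library (960 against 540 in control replicate 1), and 42 of the 44 beta values above 0 were even. Both mates of a pair thus appear to have been counted, so Poisson intervals on these reads are too narrow, and they cover counting error only.

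In the deposited table the 3 clusters stood far apart. All 22 gamma rows held at least 845 reads in every library, while no alpha row exceeded 16 reads and no beta row exceeded 14. A filter on low counts (filterByExpr) kept 25 of the 58: all 22 gamma rows, 1 alpha row (Pcdhac2) and 2 beta rows (Pcdhb14 and Pcdhb22). A read was present in all 6 libraries for 38 members, and 5 beta genes (Pcdhb4, Pcdhb5, Pcdhb9, Pcdhb10 and Pcdhb13) had none in any. For these 5, a count of 0 allows up to 3 reads a library, or 0.0873 to 0.120 CPM, if reads were counted singly. With both mates counted, as appears to be the case, the limit is higher. In a bulk sample, fewer expressing cells and less RNA per cell cannot be told apart, and this holds for every level given here.

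The gamma rows cannot be read as 22 separate genes, because their gene models share sequence. RefSeq places the gamma cluster at chr18:37661775-37841873. The GENCODE M21 models, on GRCm38, put it on the plus strand, with 3 exons of 59, 89 and 1968 bases that are common to its members. The first lies at chr18:37825021-37825079, the second at chr18:37833265-37833353 and the third at chr18:37839903-37841870. These 2116 bases make up 27.7 to 45.4% of the width deposited for a gamma gene. The deposited width equals the GENCODE exon bases for 45 of the 58 members. The mismatches include Pcdhgc3 (4687 bases deposited, 5499 in GENCODE), Pcdhga1 (4692 and 5366) and Pcdhga12 (5080 and 6664). These percentages, and the levels per kb given below, are therefore approximate for such genes. In every library the lowest gamma row reached 94.6 to 97.6% of the median gamma row. Reads on the constant exons therefore appear to have been counted in every gamma row, and the lowest row is an upper bound on them. What a row holds above that bound is called its own part here. Some own parts, such as that of Pcdhga4, also cover bases of another gamma model.

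The whole gamma rows were slightly higher in the DKO libraries. Summed over the 22 rows, in which shared reads count repeatedly, the level was 634 and 693 CPM in the control, 715 and 790 in clone 1, and 804 and 737 in clone 2. All 4 DKO libraries were above both control libraries, with means of 762 ± 42.3 (SD, n = 4) and 664 ± 41.7 (SD, n = 2). In edgeR's quasi-likelihood test with Benjamini-Hochberg adjustment, 0 of 22 gamma rows passed an adjusted p of 0.05 in DKO against control, where 8.69% of all 14771 tested genes did. At an unadjusted p under 0.05, 9 were higher and 0 lower, against 11.9% of tested genes higher. Without control replicate 1 none reached it, and the median log2 change was 0.14. DESeq2 and limma-voom also called 0 of the 25 tested members, with 5 and 12 higher at an unadjusted p under 0.05. The log2 changes ran from 0.16 to 0.23 with a median of 0.20, beside a median of 0.00 over all tested genes.

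**Figure D1:**
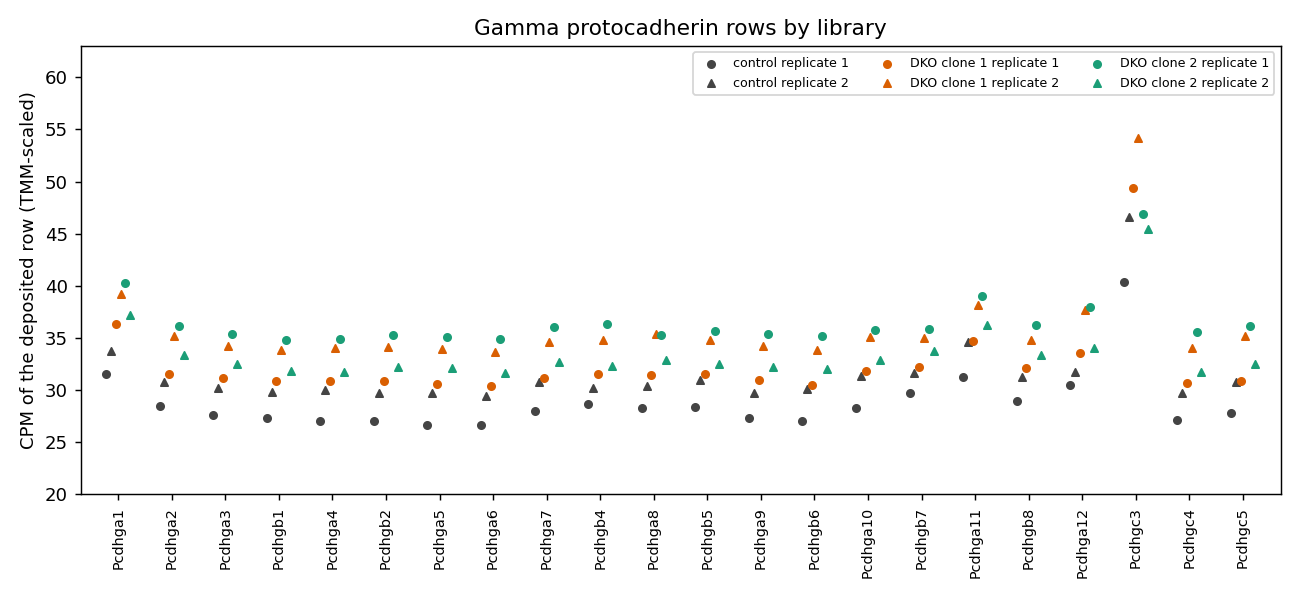
Level of each gamma protocadherin row (y axis, TMM-scaled CPM, starting at 20) in the 6 libraries, with genes in chromosomal order (x axis). Circles are replicate 1 and triangles replicate 2 of the control (grey), DKO clone 1 (orange) and DKO clone 2 (green). Apart from Pcdhgc3, every row lies higher in all 4 DKO libraries than in both control libraries, and the rows repeat 1 pattern.

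In 21 of 22 gamma rows the DKO libraries lay above both control libraries, while 16.9% of tested genes did so. The 21 rows share their constant exon reads and are not 21 separate observations. Pcdhga1, the first gene of the cluster, stood at 31.6 and 33.8 CPM in the control, 36.3 and 39.2 in clone 1, and 40.2 and 37.2 in clone 2. It had the smallest adjusted p of the gamma rows (log2 change 0.23, SE 0.085, adjusted p = 0.139 in edgeR). Pcdhgc3, a C-type isoform, of the type that neurons express constitutively, was the exception to the separation, with 40.3 and 46.6 CPM in the control, 49.4 and 54.1 in clone 1, and 46.9 and 45.4 in clone 2.

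The clones were tested against the same control libraries, so their results are not independent of each other. Clone 1 called 0 of 22 gamma rows, where 15.3% of tested genes were called. Its median log2 change was 0.18, with 2 rows higher at an unadjusted p under 0.05, against 15% of tested genes. Clone 2 also called 0 of 22, with 15% of tested genes called, a median of 0.22 and 17 rows higher at an unadjusted p under 0.05, against 14.6% of tested genes. DESeq2 and limma-voom called 0 of the 25 tested members in either contrast. Tested against each other, the clones gave 0 called gamma rows (6.3% of tested genes) and a median of 0.05, and no gamma row reached an unadjusted p of 0.05, where 9.57% of tested genes were higher and 11% lower. The direction rests on single libraries: 21 of 22 rows were above 0 with all libraries, 0 without clone 1 replicate 1 and 2 without clone 2 replicate 1. DESeq2 and limma-voom again called 0 of the tested members.

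The gamma rows were then split into the lowest row and the own parts, whose difference from each other was not tested. Own parts are built by subtracting the lowest row, so the measures are not independent. The lowest gamma row, Pcdhga6 in 5 libraries and Pcdhgb1 in clone 2 replicate 1, held 26.6 and 29.4 CPM in the control, 30.4 and 33.7 in clone 1, and 34.8 and 31.7 in clone 2. All 4 DKO libraries were higher, by a log2 change of 0.22 (SE 0.094, unadjusted p = 0.0386, adjusted p = 0.186 in edgeR), which did not pass the threshold. The own parts of the 22 rows summed to 48.7 and 46.4 CPM in the control, 46.2 and 49.5 in clone 1, and 37.3 and 40.2 in clone 2. Clone 2 was below the control in both libraries, whereas clone 1 spanned it. Counting the lowest row once, the cluster held 75.3 and 75.8 CPM in the control, 76.6 and 83.2 in clone 1, and 72.2 and 71.8 in clone 2. The groups overlapped on this measure, with a ratio of DKO to control of 1.01.

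**Figure D2:**
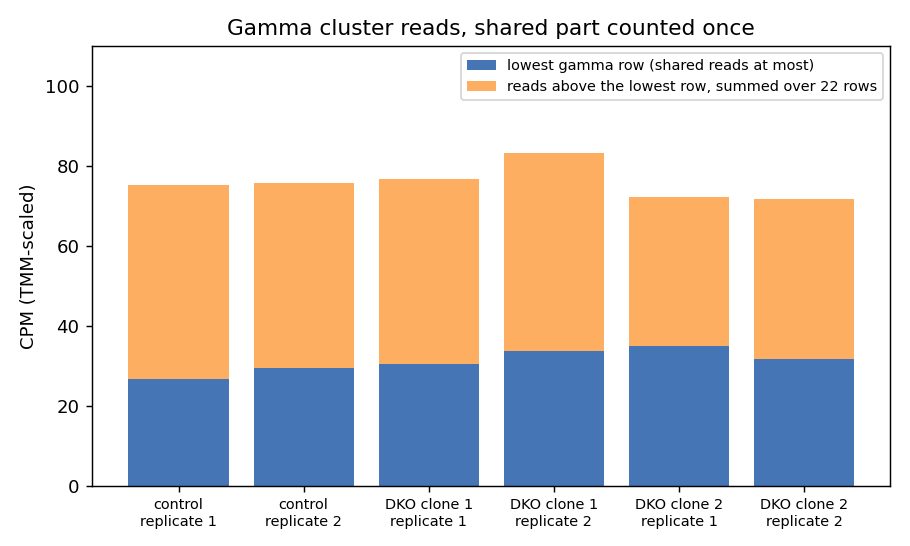
Level of the gamma cluster per library (y axis, TMM-scaled CPM), split into the lowest gamma row (blue, an upper bound on constant exon reads) and the reads above it summed over the 22 rows (orange). Bars are single libraries without error bars. The blue part is larger in each DKO library, while the total lies between 71.8 and 83.2 CPM with the groups overlapping.

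Per kilobase the shared and own reads were of similar density. The lowest row gave 13.2 CPM per kb of constant exon in the control and 15.4 in the DKO libraries, and the own parts, each per kb of its own width and then summed, gave 17.5 and 16.1.

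The own-part reads were unevenly divided among the gamma rows. Total RNA was sequenced, and spliced and unspliced RNA were not counted apart, so an own part is not a measure of a spliced isoform. Pcdhgc3 took 35.7% of own-part reads on average over the libraries, followed by Pcdhga1 with 11.9%, Pcdhga11 with 10.3% and Pcdhga12 with 7.03%. Per kb of own width, Pcdhgc3 stood at 6.02 CPM per kb in the control and 6.35 in the DKO libraries, while Pcdhga11 stood at 1.87 and 1.66, Pcdhga1 at 1.81 and 2.16, and Pcdhga12 at 1.04 and 1.07. In control CPM before division by length, Pcdhga11 (4.93 ± 0.386, SD, n = 2) and Pcdhga1 (4.67 ± 0.432) did not differ beyond their spread. The other C-type isoforms, Pcdhgc4 and Pcdhgc5, had 1 to 19 and 13 to 44 own reads a library, against 301 to 570 for Pcdhgc3.

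The own parts were fitted as separate rows, beside the lowest row, in a fit chosen after the data had been seen. Since each is a difference of 2 counts, its noise includes that of the lowest row. Of 22, 20 passed the filter. In DKO against control, 0 of 20 were called in edgeR and in DESeq2, with 8.69% of tested genes called, and the median log2 change was -0.34, from -1.46 to 0.26. Dropping control replicate 1 moved this median to -0.17, and dropping control replicate 2 moved it to -0.54. At an unadjusted p under 0.05, 0 were higher and 2 lower in edgeR, where 11.3% of tested genes were lower, and none without control replicate 1. In 8 of 22 own parts all DKO libraries were below both control libraries (Pcdhgb1, Pcdhga7, Pcdhgb5, Pcdhgb6, Pcdhga10, Pcdhgb7, Pcdhga11 and Pcdhgb8), and in 1, Pcdhga1, all were above. The share of tested genes with such a separation was 16.9% lower and 16.9% higher. All own parts of a library subtract the same lowest row, which was higher in each DKO library. The 8 are thus not separate observations, and their number cannot be weighed against that share.

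The 2 own parts past an unadjusted p of 0.05 belong to B-type isoforms. Pcdhgb5 had 60 and 51 own reads in the control, 31 and 32 in clone 1, and 20 and 22 in clone 2 (log2 change -0.77, SE 0.276, adjusted p = 0.123 in edgeR). Pcdhgb7 had 107 and 71 in the control, 50 and 36 in clone 1, and 24 and 55 in clone 2 (log2 change -0.79, SE 0.304, adjusted p = 0.145). The DKO libraries were all below the control in both, also as CPM. In contrast, the own part of Pcdhga1 was 4.98 and 4.37 CPM in the control, 5.89 and 5.57 in clone 1, and 5.38 and 5.47 in clone 2 (log2 change 0.26, SE 0.150, adjusted p = 0.346).

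**Figure D3:**
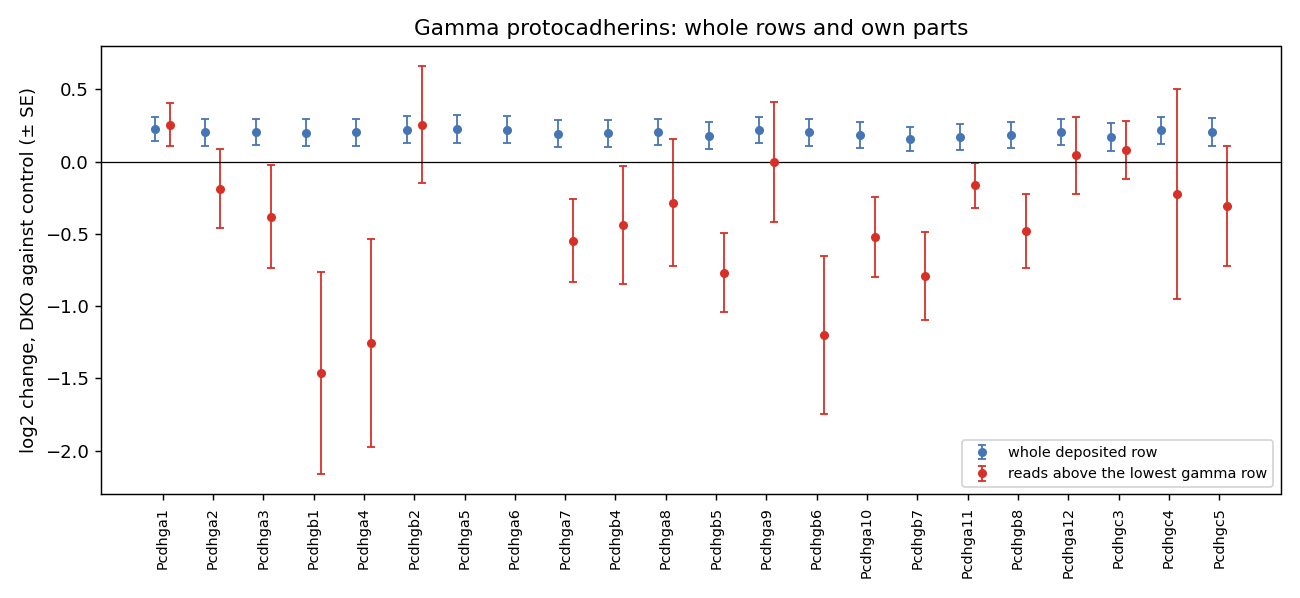
Log2 change of DKO against control (y axis, error bars are SE from edgeR) for each gamma gene in chromosomal order (x axis), for the whole deposited row (blue) and for the reads above the lowest gamma row (red). Pcdhga5 and Pcdhga6 have no red point because their own parts were too low to be tested. Whole rows lie between 0.16 and 0.23, and own parts spread from -1.46 to 0.26 with wider errors.

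The own part of Pcdhgc3 differed between the clones. It held 471 and 556 reads in the control, 529 and 570 in clone 1, and 301 and 367 in clone 2, or 15.5 ± 2.48, 19.7 ± 1.05 and 12.9 ± 1.19 CPM (SD, n = 2 each). The 2 DKO clones lay on either side of the control mean without overlapping each other. Clone 2 was lower than clone 1 by a log2 change of -0.61 (SE 0.134, adjusted p = 0.0178 in edgeR), and 2 of 20 own parts were called in that contrast, where 6.29% of tested genes were. Without clone 1 replicate 2 the adjusted p was 0.0755, without clone 2 replicate 1 it was 0.147 and without clone 2 replicate 2 it was 0.0550. The whole Pcdhgc3 row gave -0.16 (SE 0.092, adjusted p = 0.345). Clone 1 against control gave 0.25 for the whole row (adjusted p = 0.0831), a call only when control replicate 2 was left out (adjusted p = 0.0414). Summed neural markers were higher in clone 1, with 678 to 687 CPM against 503 to 518 in clone 2 and 503 to 525 in the control. Marker by marker they had no common direction. Of 12 tested in clone 1 against control, edgeR called 4 higher and 3 lower, where 15.3% of tested genes were called. The median log2 change was 0.03, with 6 markers above 0 and 6 below. The part of these markers in the Pcdhgc3 result was not tested.

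The second own part called between the clones was that of Pcdhga4, an A-type isoform. It had 16 and 21 own reads in the control, 13 and 10 in clone 1, and 1 and 1 in clone 2. The clone 2 values are thus single reads above the lowest row. The log2 change was -3.28 (SE 0.857) against clone 1, with an adjusted p of 0.0389 in edgeR, and -3.70 (SE 0.805) against the control, with an adjusted p of 0.00725. It was the 1 own part called in clone 2 against control, where 15% of tested genes were called. Leaving out any 1 of the 6 libraries raised the adjusted p against clone 1 to between 0.0639 and 0.236. Against the control it was 0.0557 without control replicate 2, 0.0651 without clone 2 replicate 1 and 0.0759 without clone 2 replicate 2. DESeq2 gave no adjusted p for this own part. The Pcdhga4 model has 4727 exon bases, of which 2116 are constant and 1570 lie in no other gamma model. The remaining bases are shared with another gamma model, so these reads need not be of Pcdhga4 alone. Pcdhgb1, the gene before it, has 2622 such unshared bases of 5776. Its own part had 24 and 14 reads in the control, 12 and 5 in clone 1, and 0 and 5 in clone 2.

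The alpha rows were close to the limit of detection. The alpha cluster spans chr18:36930285-37188897, and its 14 models share 2860 constant exon bases. In the order control, clone 1 and clone 2, the lowest rows of the 6 libraries held 8, 6, 2, 2, 5 and 12 reads, and the highest rows 16, 10, 8, 6, 7 and 12. In clone 2 replicate 2 all 14 rows were equal, and the range was widest, for its level, in clone 1 replicate 1. The sums were 3.96 and 2.88 CPM in the control, 1.79 and 1.44 in clone 1, and 3.05 and 6.30 in clone 2, which overlap. Counted once, the cluster had 32 and 15 reads in the control, 24 and 14 in clone 1, and 11 and 12 in clone 2. The Pcdha12 row had 9 and 10 reads in the control, 6 and 6 in clone 1, and 7 and 12 in clone 2. It lay above the lowest row in each library except clone 2 replicate 2. So few reads do not settle which alpha isoforms were transcribed.

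Pcdhac2, the last C-type isoform of the alpha cluster, was the alpha row that passed the filter. It had 16 and 10 reads in the control, 2 and 4 in clone 1, and 7 and 12 in clone 2. On the whole row clone 1 lay below the control, while clone 2 overlapped it. Above the lowest alpha row of each library it had 8 and 4 reads in the control, 0 and 2 in clone 1, and 2 and 0 in clone 2, so that both clones lay below the control and overlapped each other. In edgeR the log2 change was -0.72 (SE 0.624, adjusted p = 0.539) in DKO against control and -1.81 (SE 0.720, adjusted p = 0.111) in clone 1 against control. Clone 2 exceeded clone 1 by 1.73 (SE 0.750, adjusted p = 0.208), and none of these passed the threshold.

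The beta genes, at chr18:37264998-37521419, have models separate from each other, apart from a small overlap of Pcdhb21 and Pcdhb22. Overlap with genes outside the cluster was not examined, and 16 of the 22 deposited widths exceed the RefSeq span. A read in a beta row therefore need not come from that gene. All 22 beta rows together held 38 and 46 reads in the control, 20 and 24 in clone 1, and 22 and 26 in clone 2. In CPM these sums were 1.11 and 1.42, then 0.718 and 0.862, then 0.883 and 0.975. All 4 DKO libraries were below both control libraries, at 0.679 of the control mean. The exact 95% Poisson interval of the lower control sum, 26.9 to 52.2 reads, overlaps that of the highest DKO sum, 17.0 to 38.1. The number of beta genes with a read was 7 and 12 in the control, 7 and 4 in clone 1, and 5 and 9 in clone 2, and overlapped also after thinning to 1 depth.

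Pcdhb22 carried the largest part of the difference in beta reads. It had 14 and 14 reads in the control, 4 and 6 in clone 1, and 8 and 2 in clone 2, so that every DKO library was lower (log2 change -1.15, SE 0.552, adjusted p = 0.243 in edgeR). Pcdhb14 had 8 and 6 reads in the control, 4 and 10 in clone 1, and 8 and 10 in clone 2, which overlap (log2 change 0.50, SE 0.560, adjusted p = 0.647). Neither was called, and the models behind their deposited widths, 6609 and 8695 bases, exceed the RefSeq spans of 3067 and 3438 bases. Of the other 20 beta genes, 15 never exceeded 2 reads in a library. Pcdhb20 had 4 and 6 reads in the control, 0 and 0 in clone 1, and 0 and 2 in clone 2. Pcdhb17 went the other way, with 0 and 2, then 4 and 6, then 2 and 4.

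**Figure D4:**
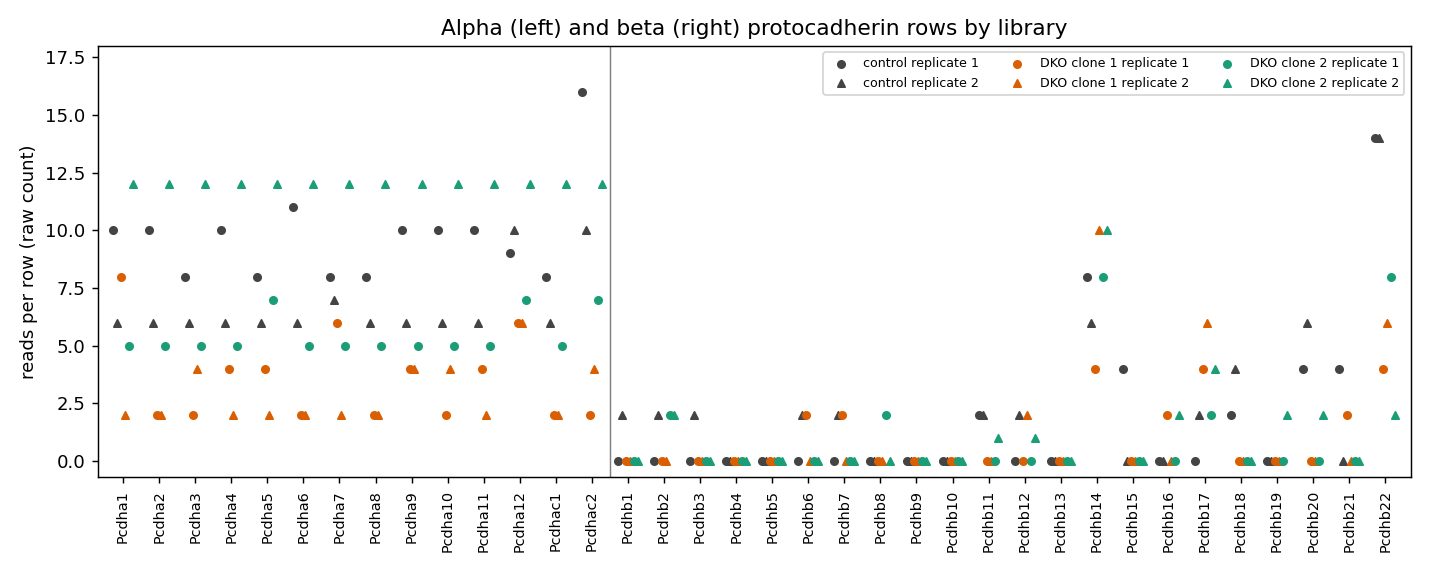
Raw reads of each alpha (left) and beta (right) protocadherin row (y axis) in the 6 libraries, with genes along the x axis. Circles and triangles are replicates 1 and 2 of the control (grey), DKO clone 1 (orange) and DKO clone 2 (green). Alpha rows range from 2 to 8 reads in clone 1 replicate 1, from 8 to 16 in control replicate 1, and are all at 12 in clone 2 replicate 2, and most beta rows lie at 0 or 2 reads.

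In addition, 3 rows that are not members name read-through transcripts from an alpha variable exon to the gamma constant exons. Gm37013, given in RefSeq as Pcdha4-g, had 6.84 and 6.72 CPM in the control, 7.79 and 10.3 in clone 1, and 10.3 and 8.81 in clone 2. All DKO libraries were higher, but the change did not pass the threshold (log2 change 0.46, SE 0.154, adjusted p = 0.101 in edgeR). A GENCODE model of the same width as this row, 2856 bases, has 446 bases in the gamma constant exons and 2410 in alpha exons that are not constant. Gm37013 held 217 to 288 reads a library, whereas the Pcdha4 row held 2 to 12. If reads on shared bases count in every row, most Gm37013 reads lie on gamma constant exons. Gm38666 (Pcdha6-g) and Gm38667 (Pcdha7-g) had the same reads in 5 of 6 libraries. Gm38666 stood at 1.37 and 1.02 CPM in the control, 1.47 and 1.80 in clone 1, and 1.97 and 1.54 in clone 2, again higher in each DKO library and not called (adjusted p = 0.305). Reads on the alpha and gamma parts of these 3 rows were not counted apart. The higher levels are therefore not shown to be those of read-through RNA.

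Genes that are known to act on the clusters were taken from a list of 30 regulators, all tested. In DKO against control 0 were called by edgeR, where 8.69% of all tested genes were, with 2 higher and 3 lower at an unadjusted p under 0.05 (11.9% and 11.3% of tested genes) and a median log2 change of 0.00. Tet1, a DNA demethylation enzyme, had the smallest adjusted p (log2 change -0.19, SE 0.059, adjusted p = 0.0722), and was called by DESeq2 (0.0463) and limma-voom (0.0447). Ehmt2, a histone H3 lysine 9 methyltransferase, followed with 106 CPM in the control and 120 in the DKO libraries (adjusted p = 0.104), then Rad21, a cohesin subunit, with 512 and 457 CPM (adjusted p = 0.108).

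Between the clones 3 of the 30 regulators were called, where 6.3% of all tested genes were, and in clone 1 against control also 3, where 15.3% were. They are named here after their values were seen. Setdb1 was at 207 and 215 CPM in the control, 274 and 259 in clone 1, and 198 and 211 in clone 2. It rose in clone 1 (log2 change 0.34, adjusted p = 0.00407 in edgeR) and not detectably in clone 2 (-0.05, adjusted p = 0.707). Clone 2 against clone 1 gave -0.38 (adjusted p = 0.00544). Dnmt3a, a DNA methyltransferase, was at 112 and 112 CPM in the control, 82.2 and 86.7 in clone 1, and 121 and 118 in clone 2. It fell in clone 1 (log2 change -0.41, adjusted p = 0.00116) and was higher in clone 2 than in clone 1 by 0.50 (adjusted p = 0.00116). Dnmt3b was lower in clone 2 than in clone 1 (-0.29, adjusted p = 0.0372), Rest fell in clone 1 (-0.29, adjusted p = 0.0127) and Tet1 in clone 2 (-0.21, adjusted p = 0.0498). Dnmt3b lost its call without clone 1 replicate 2 or either clone 2 library, Setdb1 its difference between the clones without clone 2 replicate 1 (adjusted p = 0.0811), and Rest without control replicate 2 or clone 1 replicate 1. Tet1 lost its call in clone 2 under RLE or library size scaling and without any 1 control or clone 2 library.

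Genes around the clusters were compared with the gamma rows by position. Within 1000 kb of the clusters 43 other genes were tested, the read-through rows included, and 3 rose and 2 fell, against 5.06% and 3.62% of all tested genes, with a median log2 change of 0.13. Over the 383 tested genes of chromosome 18, which include the protocadherin rows and these neighbours, the median was 0.07, with 21 higher and 11 lower. Diaph1, a formin whose nearest end lies 1.73 kb past the gamma cluster, rose by a log2 change of 0.26, with 157 CPM in the control and 187 in the DKO libraries (SE 0.069, adjusted p = 0.0451 in edgeR). Hdac3, a histone deacetylase 95.1 kb away, rose from 56.7 to 68.8 CPM (0.28, SE 0.069, adjusted p = 0.0328). Taf7, between the beta and gamma clusters, stood at 306 and 311 CPM (0.02, SE 0.086).

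Farther out, Spry4, an inhibitor of receptor tyrosine kinase signalling 744 kb away, rose by 0.50 (adjusted p = 0.0256 in edgeR). On the alpha side Pura fell by 0.30 and Hbegf, an EGF receptor ligand, fell by 0.47 on the log2 scale (adjusted p = 0.0227 and 0.00625). Each of the 5 calls was lost when control replicate 1 was left out (adjusted p 0.0699 to 0.281), and those of Diaph1, Hdac3, Pura and Hbegf also when control replicate 2 was. Leaving out single DKO libraries also ended the calls of Diaph1, Hdac3 and Pura.

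**Figure D5:**
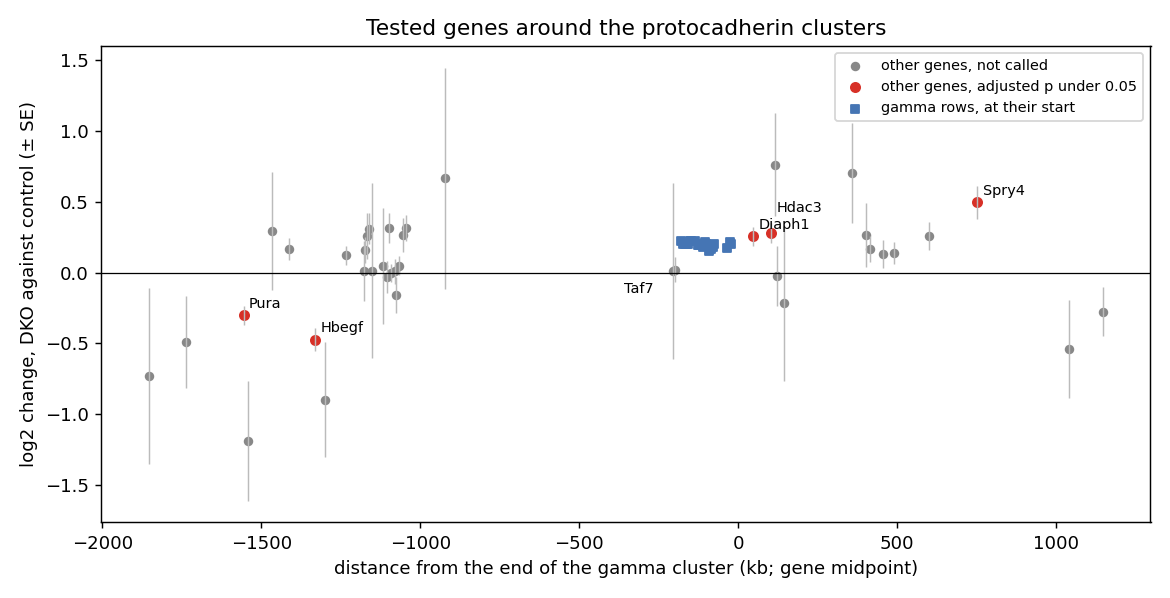
Log2 change of DKO against control (y axis, grey bars are SE) for the tested genes within 1000 kb of the clusters, at the distance of the gene midpoint from the end of the gamma cluster (x axis, kb). Red points passed an adjusted p of 0.05, grey points did not, and blue squares are the 22 gamma rows at their start, with the read-through rows left out. The gamma rows, which share reads, form a flat band from 0.16 to 0.23. Diaph1 (0.26) and Hdac3 (0.28) lie above it, and Taf7 (0.02) lies below.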

How the data were processed

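Strand-kept total RNA libraries (ScriptSeq v2) of 6 samples were sequenced. Per the submitters' processing notes, reads were aligned with STAR 2.5.0a to mm10 (GRCm38). What the authors deposited is 1 table of unnormalized counts by Entrez ID, which also lists a width for each gene. Counting tool, annotation, counted strand and treatment of shared reads: not given in the sources used here. Without the strand, sense and antisense reads cannot be told apart. Of 24467 IDs, 24437 matched the RefSeq name table, and the 30 others were named in no result.

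The analysis ran in edgeR 4.0.16 under R 4.3.3. The filterByExpr filter left 14771 genes, which were TMM-scaled and fitted together. DKO against control used a genotype term (4 residual degrees of freedom) and the clone contrasts used 3 groups (3 residual degrees of freedom), with two-sided quasi-likelihood tests and Benjamini-Hochberg adjustment at 0.05. SEs came from the F statistic. Own parts are each gamma or alpha row less the lowest row of its cluster in that library. Exon overlaps came from GENCODE M21. Scripts were tested on simulated data. The rule named every protocadherin row past the filter or with at least 10 reads in a library, up to 4 genes a list with the smallest adjusted p, and Cbx5 and Cbx1. The members and the 9 gene lists were chosen with earlier results of these data known, and so support nothing by themselves. Alternatives were RLE and library size scaling, other filters, DESeq2 1.42.0, limma-voom (limma 3.58.1), dropping single libraries in turn, and the replicate number as a block. Own parts, halved counts and their alternatives were added after seeing the data. No base sequence of these genes is printed here.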

Additional observations from a re-analysis of the deposited data

Results flagged for a closer look

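Within the 4 DKO libraries, 2 values stood apart by Dixon's test, which flags about 1 in 20 groups by chance. It was run on the 25 tested rows, the 22 gamma own parts and several measures of each cluster, so a few flags would arise by chance. Pcdhga6 had 0.0401 CPM above the lowest gamma row in clone 2 replicate 1 and 0 in the others, where it was itself the lowest row. The alpha cluster counted once had 0.861 CPM in clone 1 replicate 1, against 0.442 to 0.503 in the other DKO libraries.

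The other results differed between the DKO clones in the test of clone 2 against clone 1 (edgeR, adjusted p under 0.05). For protocadherins these were the own parts of Pcdhgc3, with a log2 change of -0.61, and of Pcdhga4, with -3.28. Among the regulators Dnmt3a was higher in clone 2 than in clone 1 by 0.50, and Setdb1 (-0.38) and Dnmt3b (-0.29) were lower. Over all tested genes 6.3% were called in this contrast. Of the other listed genes, Cdhr1, a photoreceptor cadherin, was higher by 1.52, with 1.22 and 0.718 CPM in clone 1 and 3.09 and 2.51 in clone 2. Of 12 tested neural markers, 5 were lower in clone 2 than in clone 1, namely Nefm (-0.74), Nefl (-0.65), Stmn2 (-0.35), Sox1 (-1.09) and Tubb3 (-0.32), and Elavl3 was higher (0.94). Of 7 tested fibroblast markers, Acta2 (-1.24) and Vim (-0.53) were lower. The protein partners Ptk2b (-0.53) and Pdcd10 (-0.38) and the cadherin Cdh4 (-0.91) were lower as well. Leaving out single libraries ended the calls of Acta2, Cdhr1, Elavl3, Pdcd10, Ptk2b, Stmn2 and Tubb3, and limma-voom did not call Acta2 or Elavl3. Nefm was at 69.6 and 76.9 CPM in the control, 134 and 133 in clone 1, and 80.2 and 79.9 in clone 2.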

How the results depend on the processing

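No protocadherin row was called in DKO against control under any alternative run. The 22 gamma rows kept a positive log2 change there, with medians from 0.14 (without control replicate 1, smallest adjusted p 0.493) to 0.27 (without control replicate 2). Leaving out single libraries gave 0 to 1 called members in clone 1 against control, the 1 being Pcdhgc3 without control replicate 2. Fitting own parts in place of whole rows gave 1 called member in clone 2 against control and 2 in clone 2 against clone 1. For gamma own parts, clone 1 against control gave 2 calls with no filter, 1 with the second lowest row as the base and 0 to 1 with a library left out. Clone 2 against control gave 4 calls with no filter, 0 in DESeq2, 2 in limma-voom and 0 to 2 with a library left out. Clone 2 against clone 1 gave 1 call in DESeq2, 0 to 1 with a library left out and, with the second lowest row as the base, 3, of which 1 (Pcdhgb6) was higher. The cause of these shifts was not tested.

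The gamma rows turned sign in clone 2 against clone 1, from a median of 0.05 to -0.02 both without clone 1 replicate 1 and without clone 2 replicate 1. In the contrasts with the control, these rows reversed: Pcdhac2 in clone 2 against control (main value -0.08) ran from -0.46 to 0.24 with a library left out, positive without control replicate 1 or clone 2 replicate 1 (0.21). Pcdhb14 in clone 1 against control (0.26) ran from -0.53, without clone 1 replicate 2, to 0.76, and Pcdhgc3 in clone 2 against control (0.09) from -0.012, without control replicate 1, to 0.20. Same-numbered libraries did not deviate together over all tested genes (r = 0.028, -0.083 and 0.026). A correlation over all genes cannot exclude a shared day or batch that acts on some of them, and the labels name none. With the replicate number as a block, 0 members were called in all 4 contrasts, and clone 2 against clone 1 gave 1 own part in place of 2, since Pcdhga4 moved to an adjusted p of 0.0528. In DKO against control the block left 1 gamma row in place of 9 at an unadjusted p under 0.05 and ended the calls of Diaph1, Hdac3, Cdh2, Cdh6 and Tdgf1. Depth limits the alpha and beta rows, of which 3 in all could be tested.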

Other observations

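Cadherins and catenins outside the clusters held 4 called genes of 25 tested in DKO against control, all lower. Of all tested genes 8.69% were called and 3.62% were called lower. Of 17 non-clustered protocadherins listed, 16 were in the table and 6 could be tested. In DKO against control 0 were called by edgeR, with 0 higher and 2 lower at an unadjusted p under 0.05 (11.9% and 11.3% of tested genes). Among the Fat, Dachsous and Celsr cadherins, which act in planar cell polarity and growth control, 1 of 6 tested fell: Fat1, by a log2 change of -0.36 (SE 0.066, adjusted p = 0.00851), with 806 CPM in the control and 630 in the DKO libraries. In clone 2 against control that list had 1 higher, Fat2, and 2 lower, where 15% of tested genes were called. Among classical cadherins and catenins 3 of 13 fell and 0 rose in DKO against control. Clone 1 against control gave 4 higher (Cdh4, Ctnnd1, Ctnnd2 and Jup) and 2 lower (Cdh2 and Cdh3), where 15.3% of tested genes were called. In DKO against control the 3 that fell were Cdh3, Cdh2 and Cdh6. Cdh3 went from 24.4 to 12.6 CPM (-0.96, adjusted p = 0.00282), Cdh2 from 4.36 to 2.16 (-1.01, adjusted p = 0.0292) and Cdh6 from 1.46 to 0.620 (-1.22, adjusted p = 0.0425). These calls were lost when a control library was left out: Fat1 without replicate 1, Cdh3 without replicate 2, and Cdh2 and Cdh6 without either. Cdh6 was also lost in DESeq2 and without any 1 of the DKO libraries, and Cdh2 without clone 1 replicate 2.

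Of 18 tested protein partners of protocadherins 1 rose, Wnk1, a kinase, from 626 to 888 CPM (log2 change 0.50, adjusted p = 0.00356, and 0.0760 without control replicate 1). Over all tested genes 8.69% were called in DKO against control, the share to set beside this list and those below. Of the partners, clone 1 against control called 4 higher and 0 lower, where 15.3% of tested genes were called. Clone 2 against control called 2 higher and 1 lower, where 15% were. ES cell markers moved little, with Nanog higher (498 to 626 CPM, adjusted p = 0.0281) and Tdgf1 lower (1247 to 1025 CPM, adjusted p = 0.0415) of 12 in DKO against control. Both lost the call without either control library, and Tdgf1 also by library size scaling. Of 12 tested neural markers Ncam1 was higher and Map2 lower, and the list summed to 503 to 525 CPM in the control, 678 to 687 in clone 1 and 503 to 518 in clone 2. In clone 1 against control 4 of these markers were higher and 3 lower, where 15.3% of tested genes were called. Of 7 tested fibroblast markers Fbln2 was higher and Acta2 lower, and the list summed to 468 to 510 CPM in the control, 625 to 694 in clone 1 and 449 to 469 in clone 2. The calls of Map2 and Acta2 were lost without either control library, and those of Ncam1 and Fbln2 without control replicate 1. Fbln2 was also lost without either clone 1 library. What part these cell type markers have in the protocadherin levels was not tested.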
